A study of Homo sapiens with 18 samples.

Results

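The transcripts of 7 transcription factors that drive epithelial-mesenchymal transition (EMT) and of vimentin, a filament protein of mesenchymal cells, were followed in mammary acini with and without JNK. The 8 genes, SNAI1, SNAI2, ZEB1, ZEB2, TWIST1, TWIST2, PRRX1 and VIM, were taken by name from the 42141 genes of the deposited tables, and all 8 were found. The cells, MCF-10A.B2, derive from non-malignant human breast epithelium and carry a chimeric HER2 that a bivalent drug, the B/B homodimerizer, pairs and so activates. JNK-knockout (JNKKO) and wild-type (WT) cells of that line formed acini on growth-factor-reduced Matrigel over 21 days. EGF was present until day 7, and for the following 14 days it was replaced by the dimerizer with the cytokine TGF-β1, by the dimerizer alone, or by ethanol, the control. Each genotype thus gave 3 groups, of 3 libraries each and 18 in all, and all the groups share the HER2 chimera and the loss of EGF.

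The study asked how mRNA expression in WT and JNKKO acini differs during transformation in 3D culture. No group received TGF-β1 without the dimerizer, so its effect alone cannot be told apart from its effect on cells with active HER2. The labels name neither the edited JNK gene nor whether JNKKO is 1 clone. They also leave unsaid whether each library had its own culture, and p-values therefore measure only the spread between these libraries, which may be technical. MAPK9, the gene of JNK2, was at 42.1 to 53.9 CPM (counts scaled to a common library total) in the 9 JNKKO libraries, against 57.1 to 68.4 CPM in the 9 WT libraries. MAPK8, the gene of JNK1, did not differ in 1 direction: JNKKO against WT was -0.32 ± 0.06 with TGF-β1, -0.02 ± 0.05 under the dimerizer (adjusted p = 0.811) and 0.47 ± 0.06 in control on the log2 scale. For MAPK10, the gene of JNK3, these differences were -0.09 ± 0.12 (adjusted p = 0.555), 0.47 ± 0.11 and -0.49 ± 0.10. Transcript levels of these 3 genes thus do not show which was edited.

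SNAI and ZEB proteins bind E-box sequences in the promoters of epithelial genes, E-cadherin among them, and recruit corepressors, while TWIST and PRRX1 also drive mesenchymal genes. ZEB1 and ZEB2 and the miRNAs of the miR-200 family repress each other, and TGF-β is the best-known inducer of the whole programme. Vimentin joins or replaces part of the keratin network of epithelial cells, and basal mammary cells in culture hold vimentin and SNAI2 without any inducer.

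The libraries held 24243537 to 34499651 expected counts. Library WT dimerizer with TGF-β1 replicate 3 is tagged with the other genotype in its labels, against its title. It was kept in WT by its title. The libraries of that group, this one included, held 64.7 to 68.35 CPM of MAPK9, against 51.0 to 53.9 CPM in JNKKO dimerizer with TGF-β1. Values without it are given for the differences of the tested members. For other genes and lists they are given where leaving it out changed a call or moved a count by 1.5 times. Transcripts of the mitochondrial genome took 4.60% to 4.85% of counts in JNKKO dimerizer with TGF-β1, 7.32% to 9.30% in 4 groups and 13.01% to 13.14% in WT control. ZEB1 was highest in JNKKO dimerizer with TGF-β1, and ZEB2 and TWIST1 in WT control. Genotype, treatment and this share cannot be told apart there, and leaving the mitochondrial genes out of the fit changed no call of a member. All 12 markers of mammary basal epithelium were at 1 TPM (a level scaled also to transcript length) or more in every group. Of the markers of other cells, the fibroblast list summed to 156 to 186 TPM in JNKKO and 235 to 280 TPM in WT with TGF-β1, against at most 30.4 and 41.2 TPM in the other JNKKO and WT groups. That sum came from DCN, COL1A1, FAP and DPT, while the fibroblast receptor PDGFRA stayed at 0 to 0.08 TPM and COL1A2 at 0 to 0.05 TPM. The immune list summed to 10.8 to 65.7 TPM, highest in JNKKO dimerizer with TGF-β1, with the leukocyte gene PTPRC at 0.02 to 0.26 TPM and TYROBP at 0. The sum came mainly from CD68, at 4.0 to 40.2 TPM, CSF1R, at 1.89 to 24.2 TPM, and CD14, at 0.50 to 6.65 TPM, all known from macrophages. CD68 rose with the dimerizer by 2.78 ± 0.14 in JNKKO and 0.52 ± 0.16 in WT, and CSF1R by 1.93 ± 0.15 in JNKKO and 0.91 ± 0.17 in WT, the comparison in which VIM rose. With TGF-β1 added, CSF1R rose by 1.17 ± 0.11 in JNKKO and 2.24 ± 0.13 in WT, while CD68 passed, as higher, in WT only. Other genes of the list went the other way. CD14 was lower with the dimerizer in WT, did not pass there in JNKKO, and was lower with TGF-β1 in both genotypes. MS4A1 was lower with the dimerizer in both genotypes. Of the 6 tested immune genes the dimerizer raised 2 and lowered 2 in each genotype. The endothelial list summed to 6.57 to 10.3 TPM with CDH5 at 0 to 0.02 TPM. The part of these markers in the results was not tested.

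Levels per transcript length are compared between genes in TPM. VIM was the most abundant member in all 6 groups, with means of 1784, 1517 and 780 TPM in JNKKO dimerizer with TGF-β1, dimerizer and control, and of 1106, 850 and 450 TPM in the same WT groups. SNAI2 was next throughout, between 57.0 TPM in JNKKO control and 215.6 TPM in JNKKO dimerizer with TGF-β1. The TWIST pair followed, then the ZEB pair, then SNAI1, with a mean of 1.05 TPM at most, and last PRRX1, with a mean of 0.07 TPM at most. Order within a pair differed between groups. TWIST2 was above TWIST1 in the dimerizer groups with and without TGF-β1, the libraries of the pair overlapping in WT dimerizer, and TWIST1 was above TWIST2 in both controls. ZEB2 was above ZEB1 in 5 groups, and in JNKKO dimerizer with TGF-β1 their libraries overlapped, as also those of SNAI1 and PRRX1 in WT dimerizer. Every other pair of neighbours in the order had separate libraries in every group.

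**Figure D1:**
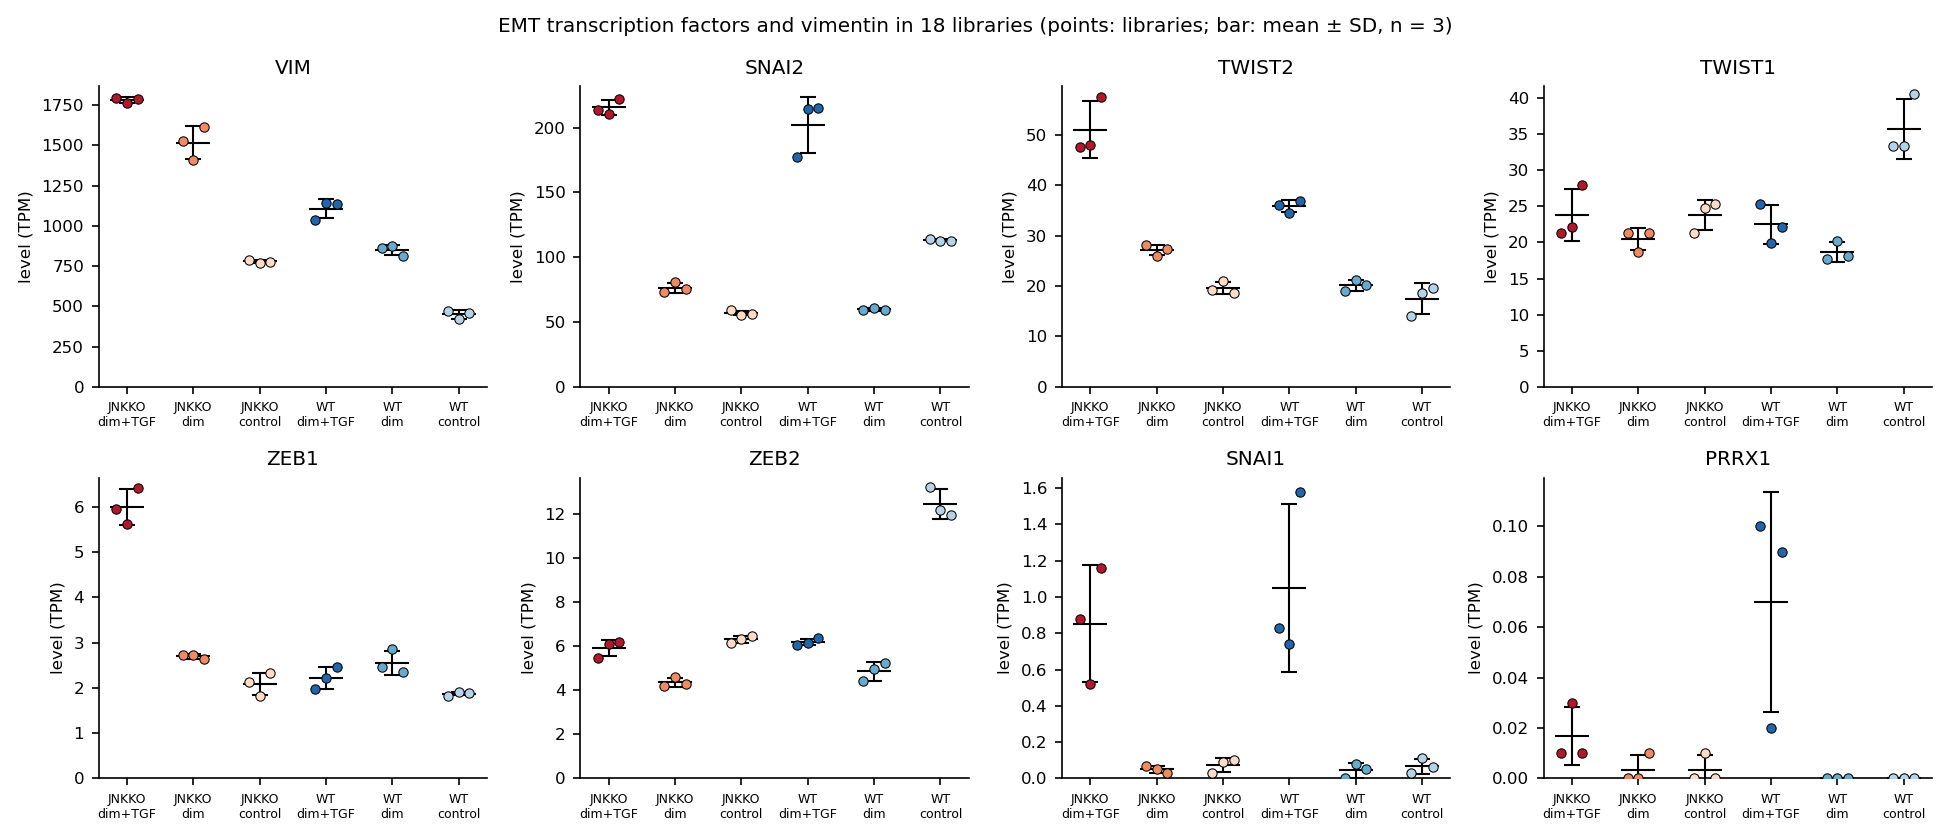
Level of each member in TPM, with 1 point per library and the mean ± SD of 3 libraries as bars, for JNKKO groups at the left and WT groups at the right. ZEB1 stands out in JNKKO dimerizer with TGF-β1, at 5.63 to 6.42 TPM, and ZEB2 in WT control, at 11.95 to 13.2 TPM.

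ZEB1 rose with TGF-β1 in JNKKO acini alone, and this difference between the genotypes passed its own test. ZEB1 is a zinc finger repressor of epithelial genes (chromosome 10, 31318495 to 31529814, plus strand, GENCODE 29 on hg38). It was at 21.8, 21.5 and 23.5 CPM in JNKKO dimerizer with TGF-β1, against 11.3, 10.8 and 10.6 CPM in JNKKO dimerizer. In WT, dimerizer with TGF-β1 gave 7.10, 7.76 and 9.01 CPM, against 9.76, 9.57 and 8.48 CPM in WT dimerizer. The JNKKO groups were separate, and the WT groups overlapped. The log2 difference was 1.03 ± 0.08 in JNKKO (2.05-fold, adjusted p = 3.342e-12, edgeR quasi-likelihood test with Benjamini-Hochberg adjustment, as in all comparisons below) and -0.22 ± 0.09 in WT (adjusted p = 0.0309). The difference between these responses was 1.25 ± 0.12 (2.38-fold, adjusted p = 3.368e-09), or 1.38 without WT dimerizer with TGF-β1 replicate 3.

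The small ZEB1 fall in WT did not pass in 10 of 15 alternatives, among them leaving out WT dimerizer with TGF-β1 replicate 1 (-0.14) or replicate 2 (-0.21), or WT dimerizer replicate 1 (-0.18) or replicate 2 (-0.19). Without WT dimerizer with TGF-β1 replicate 3 it was -0.32. Under the dimerizer alone ZEB1 rose in both genotypes, by 0.36 ± 0.09 in JNKKO (adjusted p = 0.00149) and 0.40 ± 0.09 in WT (adjusted p = 0.000352), against controls at 8.63, 7.91 and 8.81 CPM in JNKKO and 6.70, 6.88 and 7.42 CPM in WT. These responses had a difference of -0.04 ± 0.13 (adjusted p = 0.832). Set against WT, ZEB1 was higher in JNKKO with TGF-β1 by 1.48 ± 0.08 (2.80-fold, adjusted p = 6.654e-15), or 1.60 without WT dimerizer with TGF-β1 replicate 3. The genotype differences under dimerizer, 0.23 ± 0.09 (adjusted p = 0.032), and in control, 0.27 ± 0.09 (adjusted p = 0.0167), were smaller. The first missed the threshold without JNKKO dimerizer replicate 1 (0.21) or 2 (0.24) or WT dimerizer replicate 3 (0.17), and the second without JNKKO control replicate 1 (0.26) or 3 (0.24) or WT control replicate 1 (0.24). On the deposited TPM neither passed, at 0.06 and 0.10.

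ZEB2, the paralog of ZEB1 (chromosome 2, 144364364 to 144524583, minus strand), had its one high level in WT control. The other 15 libraries lay between 14.3 and 20.5 CPM, against 41.0, 38.0 and 37.7 CPM in WT control. JNKKO dimerizer held 15.2, 16.2 and 14.3 CPM, against 19.2, 19.2 and 20.5 CPM in JNKKO control, a log2 difference of -0.36 ± 0.07 (adjusted p = 8.152e-05). WT dimerizer held 14.3, 15.4 and 17.0 CPM and was lower than WT control, at -1.32 ± 0.06 (0.401-fold, adjusted p = 1.299e-16). The JNKKO response was thus 0.96 ± 0.09 above that of WT (adjusted p = 1.895e-09), and JNKKO control lay below WT control by the same order, at -0.99 ± 0.06 (adjusted p = 1.18e-13). TGF-β1 raised ZEB2 by 0.24 ± 0.07 in JNKKO (adjusted p = 0.00385), where the libraries were at 17.5, 18.2 and 18.2 CPM. In WT, at 16.4, 16.9 and 16.5 CPM, the ZEB2 difference was 0.09 ± 0.07 (adjusted p = 0.254), and 0.09 without WT dimerizer with TGF-β1 replicate 3. On the deposited TPM the WT difference passed, at 0.30 (limma, log2(TPM + 1), adjusted p = 0.000337), where the median of all genes was itself at 0.144.

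The ratio of ZEB1 to ZEB2 in TPM therefore moved with both genotype and treatment. It was 1.02 ± 0.085 in JNKKO dimerizer with TGF-β1, 0.618 ± 0.030 in JNKKO dimerizer and 0.330 ± 0.037 in JNKKO control (SD, n = 3). In WT the ratios were 0.357 ± 0.032, 0.527 ± 0.069 and 0.151 ± 0.010 in the same order of treatments. With TGF-β1 the ratio was higher than under the dimerizer in each JNKKO library and lower in each WT library. Without WT dimerizer with TGF-β1 replicate 3 the mean of that group was 0.343.

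**Figure D2:**
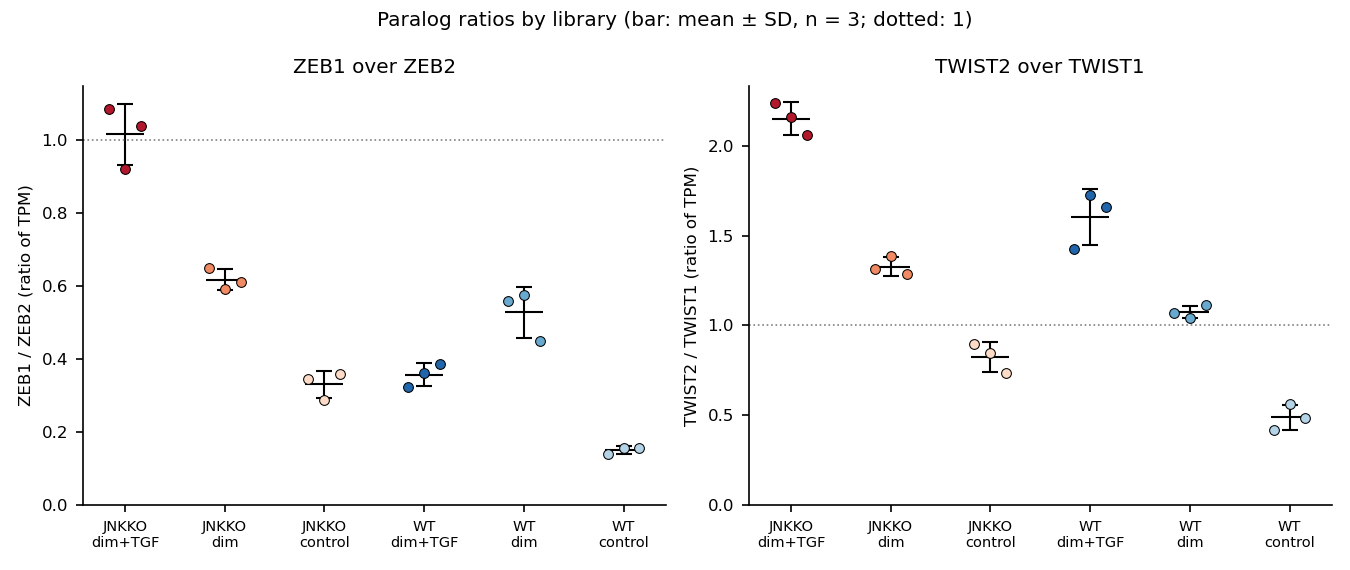
Ratio of the TPM of ZEB1 to that of ZEB2 (left) and of TWIST2 to TWIST1 (right) in each library, with the mean ± SD of 3 libraries and a dotted line at 1. ZEB1 reaches ZEB2 only in JNKKO dimerizer with TGF-β1, at 0.921 to 1.09, and TWIST2 over TWIST1 runs from 0.488 in WT control to 2.15 in JNKKO dimerizer with TGF-β1.

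Both ZEB transcripts carry many matches to the seeds of the miR-200 family, shown here because the transcripts that host some of these miRNAs were measured in the same libraries. The mature miRNAs read as follows in RefSeq (GRCh38.p14), with the seed, bases 2 to 8, in capitals. miR-205-5p is encoded at chr1:209432166-209432187, miR-200c-3p at chr12:6963742-6963764 and miR-141-3p at chr12:6964155-6964176, all on the plus strand. miR-200c-3p shares its seed with miR-200b-3p and miR-429, and miR-141-3p with miR-200a-3p.
miR-205-5p: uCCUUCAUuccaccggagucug
miR-200c-3p: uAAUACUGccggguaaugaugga
miR-141-3p: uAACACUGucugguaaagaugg

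The longest annotated 3′ UTR of ZEB1 holds 6 copies of CAGTATT, the match to the miR-200c-3p seed, and that of ZEB2 holds 5. At least 1 copy stands in 15.97% of the 19115 genes with a 3′ UTR of any length. As many copies as in ZEB1 stand in 3 genes, ZEB1 included, and as many as in ZEB2 in 7. CAGTGTT, the match to miR-141-3p, occurs 3 times in ZEB1 and 4 times in ZEB2. ATGAAGG, the match to miR-205-5p, occurs once in ZEB1 and at no place in ZEB2, and in 11.6% of genes. None of the 3 motifs was found on the coding strand of the 3′ UTRs of SNAI1, TWIST1, TWIST2, PRRX1 or VIM. The 3′ UTR of SNAI2 was not searched. The first 3 of the CAGTATT sites in each ZEB gene and the ATGAAGG site of ZEB1 are shown 5′ to 3′ on the strand of the transcript (GENCODE 29, hg38), with the match in capitals.
ZEB1 chr10:31527621-31527648: gttttatcttatCAGTATTatcactctt
ZEB1 chr10:31527715-31527742: ctaaatccgcttCAGTATTttattatgt
ZEB1 chr10:31528144-31528171: agtgccatttctCAGTATTttcaaggct
ZEB1 chr10:31528070-31528097: atgtggtaacatATGAAGGatatgacat
ZEB2 chr2:144389044-144389071: actaccatacatCAGTATTtttattatt
ZEB2 chr2:144388981-144389008: actacaatgcatCAGTATTatgattcct
ZEB2 chr2:144388623-144388650: aagcacccatgtCAGTATTagaagaata

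The host transcripts of these miRNAs fell with TGF-β1 in both genotypes. MIR205HG, which spans the miR-205 hairpin, was at 134, 135 and 131 CPM in JNKKO dimerizer with TGF-β1, against 426, 381 and 423 CPM in JNKKO dimerizer, a log2 difference of -1.62 ± 0.05 (adjusted p = 1.99e-20). WT dimerizer with TGF-β1 held 158, 142 and 138 CPM of MIR205HG, against 334, 322 and 335 CPM in WT dimerizer (-1.17 ± 0.05, adjusted p = 8.77e-18). MIR200CHG, the host of miR-200c and miR-141, was scarcer, with 0.876, 1.17 and 0.683 CPM in JNKKO dimerizer with TGF-β1, against 2.86, 2.20 and 2.51 CPM in JNKKO dimerizer (-1.45 ± 0.22, adjusted p = 1.151e-06). In WT, MIR200CHG was at 0.756, 1.06 and 0.586 CPM with TGF-β1, against 3.55, 4.26 and 4.61 CPM under the dimerizer (-2.38 ± 0.20, adjusted p = 2.689e-11). The fall of MIR205HG was deeper in JNKKO, by -0.44 ± 0.07 (adjusted p = 8.358e-06), and that of MIR200CHG shallower, with a difference of 0.92 ± 0.31 (adjusted p = 0.0214) that missed the threshold without WT dimerizer with TGF-β1 replicate 3, at 0.77 ± 0.32 (adjusted p = 0.0710).

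Under the dimerizer alone MIR205HG rose by 0.33 ± 0.05 in JNKKO and 0.31 ± 0.05 in WT (larger adjusted p = 2.735e-06). MIR200CHG rose by 1.52 ± 0.19 in WT (adjusted p = 6.714e-08) and was at -0.07 ± 0.19 in JNKKO (adjusted p = 0.803), a difference of -1.59 ± 0.27 (adjusted p = 1.673e-05). In that WT comparison ZEB1 was higher under the dimerizer, by 0.40, and ZEB2 lower, at -1.32. The mature miRNAs were not measured in these libraries, which were made from RNA selected on oligo(dT).

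The 250 bases before and 50 after the start of MIR200CHG, chr12:6962995-6963294 on the plus strand (RefSeq, GRCh38.p14), are shown because ZEB1 is known to bind E-boxes at this gene. The capitals mark the single CACCTG, the E-box core CAGGTG read on the other strand, which starts 78 bases before the transcript. CAGGTG or CACCTG stands in 20.6% of 35116 promoter windows of the same length, and at no place in the window of MIR205HG.
MIR200CHG promoter: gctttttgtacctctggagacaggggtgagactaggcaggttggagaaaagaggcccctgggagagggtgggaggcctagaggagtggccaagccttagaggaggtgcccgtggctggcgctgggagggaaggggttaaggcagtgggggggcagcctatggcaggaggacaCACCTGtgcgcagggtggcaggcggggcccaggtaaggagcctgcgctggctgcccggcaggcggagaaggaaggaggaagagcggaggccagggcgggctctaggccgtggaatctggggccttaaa

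ZEB1-AS1, transcribed from the opposite strand across the start of ZEB1, fell with TGF-β1 in both genotypes. It was at 5.65 ± 0.14 CPM in JNKKO dimerizer with TGF-β1, against 9.08 ± 0.54 CPM in JNKKO dimerizer (-0.68 ± 0.10, adjusted p = 7.788e-07), and at 4.55 ± 0.22 CPM in WT dimerizer with TGF-β1, against 6.48 ± 0.19 CPM in WT dimerizer (-0.51 ± 0.10, adjusted p = 7.881e-05; SD, n = 3). The difference between these responses was -0.17 ± 0.14 (adjusted p = 0.385). In some other comparisons ZEB1-AS1 was higher, as ZEB1 was. These were the dimerizer against control in JNKKO (0.29 ± 0.10, adjusted p = 0.0160), and JNKKO against WT with TGF-β1 (0.31 ± 0.11, adjusted p = 0.0149) and under the dimerizer (0.48 ± 0.10, adjusted p = 0.000153). In others it was not. ZEB1 was higher by 0.40 in WT dimerizer against control and by 0.27 in JNKKO against WT control, and ZEB1-AS1 passed in neither. With TGF-β1 against control in JNKKO, ZEB1 was higher by 1.40 and ZEB1-AS1 lower, at 5.65 against 7.41 CPM. Of the other transcripts beside members, VIM-AS1 held 1.80 to 2.72 CPM on average per group and ZEB2-AS1 at most 5 counts in a library. VIM-AS1 was higher with the dimerizer in WT, as VIM was. It was lower with TGF-β1 in WT and in JNKKO against WT under the dimerizer, where VIM was higher. SNAI3-AS1, on the same list, is named for SNAI3, a paralog of SNAI1 that is not among the 8 genes; it was at 0.32 ± 0.21 with TGF-β1 in JNKKO (adjusted p = 0.189) and rose by 1.18 ± 0.21 in WT (adjusted p = 1.544e-05). Whether counting used strand is not stated in the labels, and reads from a gene and its antisense partner cannot be told apart.

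**Figure D3:**
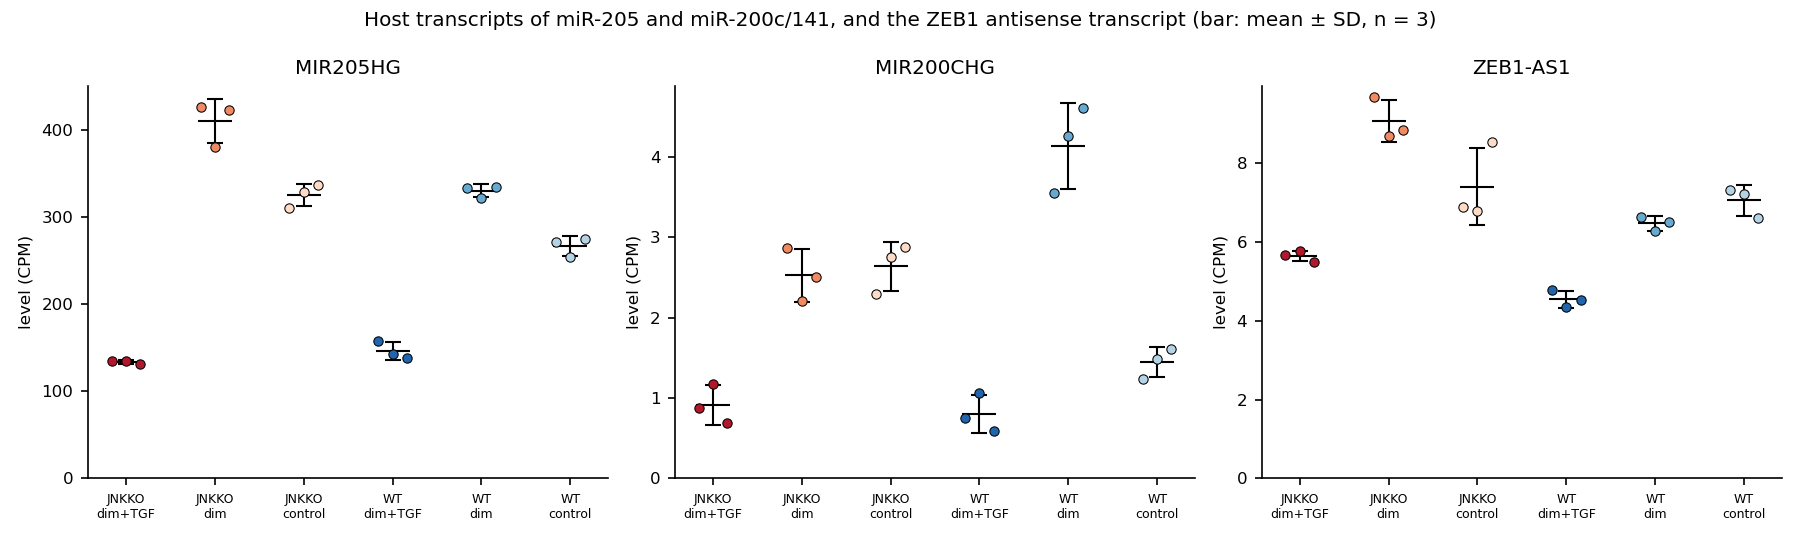
CPM of MIR205HG, of MIR200CHG and of ZEB1-AS1 in each library, with the mean ± SD of 3 libraries, JNKKO groups left and WT groups right. Both host transcripts are low in the TGF-β1 groups of both genotypes, with MIR205HG at 131 to 158 CPM there and at 253 CPM or more elsewhere.

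SNAI1, the zinc finger repressor first to act in many forms of EMT (chromosome 20, 49982999 to 49988886, plus strand), was seen almost only with TGF-β1. JNKKO dimerizer with TGF-β1 held 25, 16 and 32 counts, against 2, 2 and 1 counts in JNKKO dimerizer. WT dimerizer with TGF-β1 held 27, 22 and 50 counts, against 0, 3 and 2 counts in WT dimerizer. The controls held 1, 3 and 3 counts in JNKKO and 1, 4 and 2 counts in WT, so all 6 libraries with TGF-β1 were above all 12 without it. Scaled for library size, the summed counts were 14.5 times as high with TGF-β1 as under the dimerizer in JNKKO (95% interval 5.95 to 46.1) and 20.7 times in WT (8.57 to 65.1), intervals that cover counting error only. Without WT dimerizer with TGF-β1 replicate 3 the WT value was 15.5 times (6.20 to 49.8).

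SNAI1 passed the filter on low counts only through the groups with TGF-β1, where it is high, so the calls that the model over all genes makes for it against those without TGF-β1 are no support and its counts stand in their place. Between the genotypes, the ratio of JNKKO to WT counts with TGF-β1 was 0.819 (95% interval 0.597 to 1.12), or 1.09 (0.751 to 1.60) without WT dimerizer with TGF-β1 replicate 3. The model gave a difference between the responses to TGF-β1 of -0.49 ± 1.02 (adjusted p = 0.760), or -0.05 without that library. This value rests on summed counts of 5 in each dimerizer group, so it cannot decide whether the responses differ. A difference within these intervals was not detectable at this depth. Against control, the dimerizer gave ratios of 0.689 (0.172 to 2.52) in JNKKO and 0.659 (0.165 to 2.41) in WT.

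SNAI2, its paralog SLUG, which basal mammary cells use to hold their identity (chromosome 8, 48917604 to 48921740, minus strand), also rose with TGF-β1, at a level far above that of SNAI1. It was at 263, 269 and 271 CPM in JNKKO dimerizer with TGF-β1, against 109, 118 and 111 CPM in JNKKO dimerizer. In WT, the dimerizer with TGF-β1 gave 214, 258 and 259 CPM, against 79.7, 81.1 and 79.5 CPM in WT dimerizer. No library with TGF-β1 overlapped one without it. The log2 differences were 1.24 ± 0.05 in JNKKO (2.37-fold, adjusted p = 3.958e-17) and 1.60 ± 0.05 in WT (3.04-fold, adjusted p = 1.808e-19), or 1.55 without WT dimerizer with TGF-β1 replicate 3. The JNKKO response was smaller by this test, at -0.36 ± 0.07 (adjusted p = 0.000286), or -0.29 without that library.

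With the dimerizer alone SNAI2 moved in opposite directions in the genotypes. JNKKO control held 84.3, 80.9 and 80.7 CPM, so that SNAI2 was higher under the dimerizer by 0.46 ± 0.05 (1.38-fold, adjusted p = 8.114e-08). WT control held 165, 162 and 165 CPM, and SNAI2 was lower under the dimerizer by -1.03 ± 0.05 (0.489-fold, adjusted p = 5.843e-15). These responses had a difference of 1.495 ± 0.07 (2.82-fold, adjusted p = 1.706e-14), past the threshold in all 21 alternatives, at 1.33 to 1.52. JNKKO against WT was -1.0 ± 0.05 in control (adjusted p = 2.047e-14), 0.49 ± 0.05 under the dimerizer (adjusted p = 2.353e-08) and 0.13 ± 0.05 with TGF-β1 (adjusted p = 0.0224). The last of these missed the threshold in 7 of 15 alternatives, with 0.05 without WT dimerizer with TGF-β1 replicate 1, 0.13 without JNKKO dimerizer with TGF-β1 replicate 2 or 3, and 0.20 past it without WT dimerizer with TGF-β1 replicate 3. Against control, SNAI2 with TGF-β1 was higher by 1.71 ± 0.05 in JNKKO and by 0.57 ± 0.05 in WT. The WT value was 0.50 without WT dimerizer with TGF-β1 replicate 3.

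TWIST1, a basic helix-loop-helix factor (chromosome 7, 19020991 to 19117672, minus strand), was highest in WT control and was not moved by TGF-β1 past the threshold. The other 15 libraries lay between 19.2 and 29.2 CPM, against 38.7, 38.5 and 47.7 CPM in WT control. JNKKO dimerizer held 25.6, 21.97 and 25.3 CPM, against 24.5, 28.8 and 29.2 CPM in JNKKO control, and these overlapped (-0.18 ± 0.12, adjusted p = 0.255). In edgeR this difference passed without the filter on low counts (-0.18, adjusted p = 0.0294) and with only the compared groups (-0.20, adjusted p = 0.0489). WT dimerizer, at 19.2, 21.7 and 19.6 CPM, was below WT control by -1.04 ± 0.12 (0.485-fold, adjusted p = 1.416e-06). The difference of the responses was 0.86 ± 0.17 (adjusted p = 0.000603), and JNKKO was below WT in control by -0.60 ± 0.11 (adjusted p = 0.000423). With TGF-β1 added, TWIST1 was at 21.0, 22.7 and 27.2 CPM in JNKKO (-0.04 ± 0.12, adjusted p = 0.819) and at 24.5, 19.3 and 21.4 CPM in WT (0.11 ± 0.12, adjusted p = 0.449). The WT difference was 0.12 without WT dimerizer with TGF-β1 replicate 3. Under the dimerizer the JNKKO libraries were all above the WT libraries, at 0.26 ± 0.12, and this difference missed the threshold in the main edgeR fit (adjusted p = 0.101). It passed in DESeq2, at 0.27 (adjusted p = 0.0334). In edgeR it passed without the filter, at 0.27 (adjusted p = 0.000305), and with only the compared groups, at 0.255 (adjusted p = 0.00706).

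TWIST2, its paralog (chromosome 2, 238848032 to 238910543, plus strand), rose with TGF-β1 by nearly the same amount in each genotype. It was at 38.1, 39.7 and 45.4 CPM in JNKKO dimerizer with TGF-β1, against 27.0, 24.5 and 26.2 CPM in JNKKO dimerizer (0.67 ± 0.09, 1.59-fold, adjusted p = 9.961e-07). WT dimerizer with TGF-β1 held 28.0, 26.6 and 28.5 CPM, against 16.4, 18.2 and 17.6 CPM in WT dimerizer (0.67 ± 0.09, adjusted p = 1.367e-06), or 0.65 without replicate 3 with TGF-β1. Neither pair of groups overlapped, and the difference of the responses was -0.01 ± 0.13 (adjusted p = 0.976), or 0.04 without that replicate. The dimerizer raised TWIST2 in JNKKO by 0.51 ± 0.09 (adjusted p = 0.000196), against controls at 17.7, 19.7 and 17.3 CPM. In WT, with controls at 13.1, 17.4 and 18.5 CPM, the groups overlapped (0.09 ± 0.10, adjusted p = 0.437). The difference of these responses, 0.41 ± 0.14 (adjusted p = 0.0182), missed the threshold without WT control replicate 2 (0.36) or replicate 3 (0.31) and on the deposited TPM (0.24).

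JNKKO was higher than WT in TWIST2 with TGF-β1, by 0.56 ± 0.09 (adjusted p = 1.074e-05), or 0.61 without WT dimerizer with TGF-β1 replicate 3, and under the dimerizer, by 0.57 ± 0.09 (adjusted p = 4.123e-05). In control the difference was 0.16 ± 0.10 (adjusted p = 0.193), and 0.26 past the threshold without WT control replicate 3. The TPM ratio of TWIST2 to TWIST1 was 2.15 ± 0.090, 1.33 ± 0.052 and 0.826 ± 0.084 in JNKKO dimerizer with TGF-β1, dimerizer and control, and 1.60 ± 0.16, 1.08 ± 0.036 and 0.488 ± 0.071 in WT (SD, n = 3). In each treatment every JNKKO ratio lay above every WT ratio, and the mean of WT dimerizer with TGF-β1 was 1.58 without its replicate 3. A sum of both TWIST genes was at 74.8 ± 9.18, 47.6 ± 2.55 and 43.4 ± 2.59 TPM in JNKKO and 58.3 ± 3.54, 38.8 ± 2.38 and 53.2 ± 6.53 TPM in WT.

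PRRX1, a paired-related homeobox factor of mesenchyme (chromosome 1, 170662728 to 170739419, plus strand), was near absent and did not pass the filter on low counts, so it has no test. WT dimerizer with TGF-β1 held 8, 2 and 8 counts, and WT dimerizer and WT control held 0 in all 6 libraries. JNKKO dimerizer with TGF-β1 held 1, 2 and 1 counts, JNKKO dimerizer 0, 0 and 1, and JNKKO control 0, 1 and 0. With a floor of 3 counts set in place of 0, PRRX1 was 6.27-fold higher in WT dimerizer with TGF-β1 than in WT dimerizer. Against WT control it was 5.79-fold higher by the same floor. These values take the summed 18 counts as exact, and their 95% interval for counting error is 10.67 to 28.45. That of 0 counts reaches 3.69, so the values are not lower limits. With TGF-β1 the ratio of JNKKO to WT was 0.247 (95% interval 0.0607 to 0.749, counting error only), with library counts of 1 to 2 in JNKKO that overlap the 2 to 8 in WT. Without WT dimerizer with TGF-β1 replicate 3, 10 counts remained in that group. By the same floor this put it 5.27-fold above WT dimerizer and 4.86-fold above WT control. The ratio of JNKKO to WT was then 0.294 with an interval that reaches past 1 (0.0672 to 1.02).

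VIM, the vimentin gene (chromosome 10, 17228259 to 17237593, plus strand), rose with the dimerizer in both genotypes and was higher in JNKKO in every treatment. It was at 2090, 1889 and 2187 CPM in JNKKO dimerizer, against 1035, 1025 and 1026 CPM in JNKKO control. WT dimerizer held 1069, 1071 and 1000 CPM, against 628, 554 and 615 CPM in WT control. Of these 4 groups, WT dimerizer and JNKKO control overlapped and the others were separate. The log2 differences were 0.998 ± 0.05 in JNKKO (1.998-fold, adjusted p = 6.158e-13) and 0.80 ± 0.05 in WT (1.75-fold, adjusted p = 8.837e-12). Their difference, 0.19 ± 0.07 (adjusted p = 0.0311), missed the threshold in 13 of 21 alternatives. These included each JNKKO control library left out in turn (0.19 to 0.20), JNKKO dimerizer replicate 1 (0.18) or 3 (0.15), WT dimerizer replicate 3 (0.16), and WT control replicate 1 (0.16) or 3 (0.18). On the deposited TPM it was 0.04.

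TGF-β1 added little to VIM. JNKKO dimerizer with TGF-β1 held 2023, 2064 and 1996 CPM, which overlapped JNKKO dimerizer (-0.02 ± 0.05, adjusted p = 0.755). WT dimerizer with TGF-β1 held 1146, 1259 and 1257 CPM, above WT dimerizer (0.22 ± 0.05, 1.17-fold, adjusted p = 0.000471), or 0.19 without its replicate 3. The JNKKO response was lower, at -0.24 ± 0.07 (adjusted p = 0.0107). This missed the threshold without WT dimerizer with TGF-β1 replicate 2 (-0.20) or replicate 3 (-0.20). It also missed on the deposited TPM, at -0.14 (limma, log2(TPM + 1), adjusted p = 0.138). On the deposited TPM the JNKKO difference was 0.24 and passed (limma, log2(TPM + 1), adjusted p = 0.000626), where all genes had a median of 0.204, so that relative to it the VIM change was small on both scales. JNKKO against WT was 0.73 ± 0.05 with TGF-β1 (1.66-fold, adjusted p = 4.317e-11; 0.77 without WT dimerizer with TGF-β1 replicate 3), 0.97 ± 0.05 under the dimerizer (1.96-fold, adjusted p = 1.056e-12) and 0.78 ± 0.05 in control (1.72-fold, adjusted p = 2.027e-11). VIM took 0.182% to 0.211% of the counts of the JNKKO groups with dimerizer, against 0.0553% to 0.062% in WT control.

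**Figure D4:**
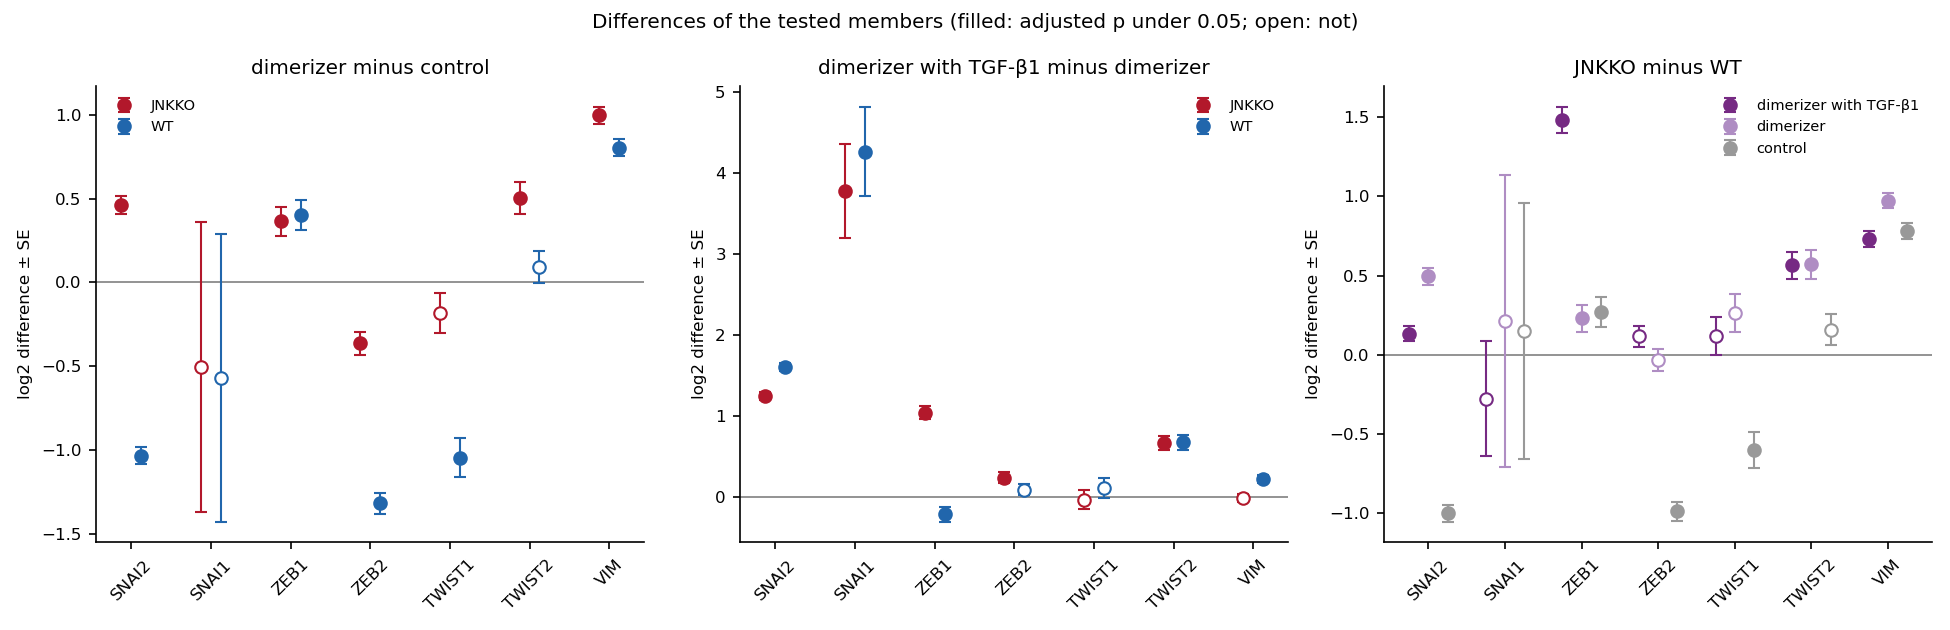
Log2 differences ± standard error (SE) of the 7 tested members: dimerizer minus control (left) and dimerizer with TGF-β1 minus dimerizer (middle), each with JNKKO in red and WT in blue, and JNKKO minus WT in the 3 treatments (right). Filled symbols passed an adjusted p of 0.05: SNAI2 lies at 0.46 in JNKKO and -1.03 in WT in the left panel, and ZEB1 at 1.03 and -0.22 in the middle panel. SNAI1 entered the test only through the groups with TGF-β1.

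**Figure D5:**
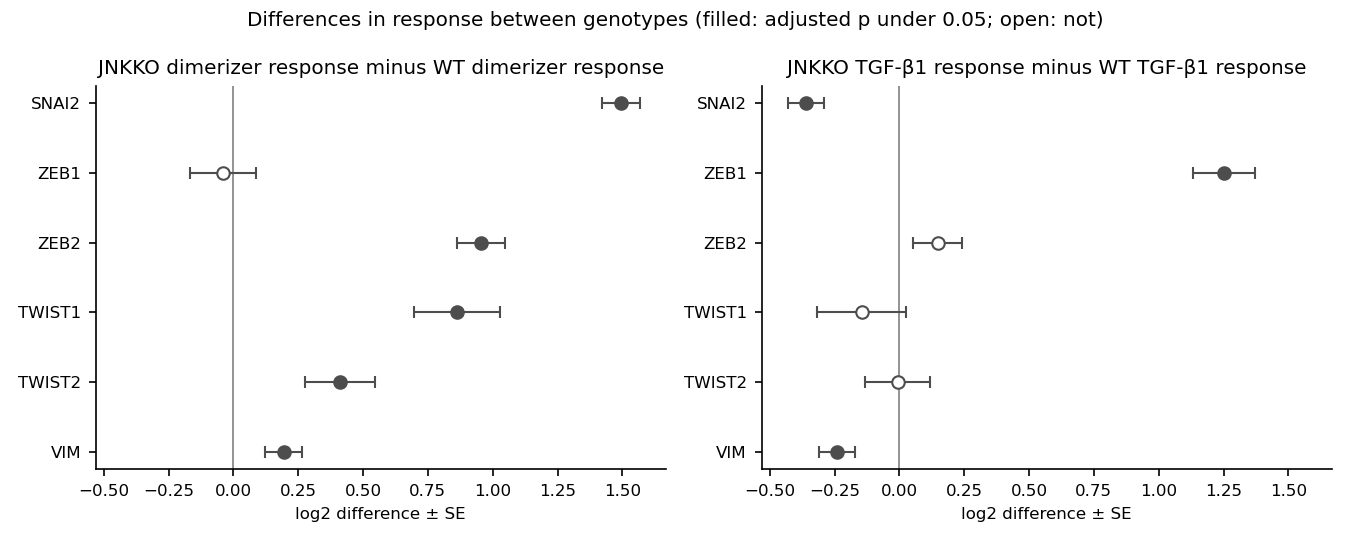
Response of JNKKO minus response of WT, as log2 difference ± SE, to the dimerizer (left) and to TGF-β1 added to it (right), for 6 members. SNAI1 is left out because its SE exceeds 1. SNAI2 leads the left panel at 1.495 and ZEB1 the right panel at 1.25.

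Counted over the 7 tested members, the dimerizer against control changed 5 in JNKKO, 4 higher and 1 lower, where 40.4% of the 16911 genes tested passed (22.5% higher, 17.9% lower). In WT it changed 5, 2 higher and 3 lower, where 55.9% passed (30.3% higher, 25.6% lower). TGF-β1 added to the dimerizer changed 5 in JNKKO, all higher, with 60.7% of all genes past the threshold (30.5% higher, 30.3% lower). It changed 5 in WT, 4 higher and 1 lower, with 65.2% of all genes (33.4% higher, 31.8% lower). Against control, the dimerizer with TGF-β1 changed 5 in JNKKO, all higher, where 67.3% of all genes passed (33.8% higher, 33.4% lower), and 6 in WT, 4 higher and 2 lower, where 61.8% passed (31.3% higher, 30.5% lower). JNKKO against WT changed 4 with TGF-β1, all higher (52.9% of all genes, 26.5% higher and 26.4% lower). Under the dimerizer it changed 4, all higher (40.1%, 21.6% higher and 18.5% lower), and in control 5, 2 higher and 3 lower (49.3%, 25.8% higher and 23.5% lower). The responses of the genotypes to the dimerizer differed for 5, all higher in JNKKO (42.6% of all genes, 21.4% higher and 21.2% lower), and those to TGF-β1 for 3, 1 higher and 2 lower (32.9%, 14.1% higher and 18.8% lower). SNAI1, which was tested only through the groups with TGF-β1, is 1 of the members counted as higher where TGF-β1 groups were set against dimerizer or control groups. Without SNAI1, TGF-β1 added to the dimerizer changed 4 in JNKKO, all higher, and 4 in WT, 3 higher and 1 lower. Against control those counts were 4 in JNKKO, all higher, and 5 in WT, 3 higher and 2 lower. With 7 members these counts do not set the members apart from the table. Comparisons with the same control or dimerizer group share its libraries.

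A median over the 6 tested members other than SNAI1 stood at 0.41 for the dimerizer in JNKKO and -0.47 in WT, beside medians of all genes at 0.01 and 0.03. For these members TGF-β1 gave 0.45 in JNKKO and 0.17 in WT, beside -0.01 and 0.00.

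Lists of other EMT genes were counted in the same way, and their counts stand beside the shares of all genes given above for each comparison. For TGF-β1 these were 30.5% higher and 30.3% lower in JNKKO and 33.4% higher and 31.8% lower in WT. For the dimerizer they were 22.5% higher and 17.9% lower in JNKKO and 30.3% higher and 25.6% lower in WT. Of 24 tested genes known to be repressed by these factors, TGF-β1 lowered 21 and raised 2 in JNKKO (median -0.98), and lowered 18 and raised 2 in WT (median -0.83). CDH1, the E-cadherin gene, fell to 39.8 ± 0.90 CPM in JNKKO dimerizer with TGF-β1, against 81.5 ± 3.05 CPM in JNKKO dimerizer (-1.03 ± 0.07, adjusted p = 1.676e-11), and to 81.7 ± 10.1 CPM in WT dimerizer with TGF-β1, against 106 ± 1.73 CPM in WT dimerizer (-0.37 ± 0.06, adjusted p = 1.812e-05; SD, n = 3). The CDH1 response was larger in JNKKO, by -0.66 ± 0.09 (adjusted p = 9.9e-06). Against control, CDH1 with TGF-β1 was lower in JNKKO (-1.03 ± 0.07, adjusted p = 1.13e-11). In WT it was still higher than in control (0.46 ± 0.06, adjusted p = 2.286e-06). ESRP2 and ESRP1, splicing factors of epithelial cells, fell by 1.89 and 1.25 in JNKKO and by 0.99 and 0.81 in WT. CLDN7, a claudin, and GRHL3, an epithelial transcription factor, fell by 0.74 and 0.96 in JNKKO and by 1.32 and 2.10 in WT.

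The dimerizer alone lowered 12 of the repressed genes and raised 2 in JNKKO (median -0.28), with EPCAM at -1.04 ± 0.10 and DSP, a desmosome gene, at -0.50 ± 0.04. EPCAM was at 0.08 ± 0.09 in WT (adjusted p = 0.509) and DSP fell there too, at -0.23 ± 0.04. In WT it raised 12 and lowered 2 (median 0.21), with ESRP1 at 1.05 ± 0.05 and CDH1 at 0.84 ± 0.06, against 0.45 ± 0.05 and 0.00 ± 0.06 in JNKKO. The responses of 16 genes were lower in JNKKO than in WT and that of 1 higher, with LLGL2, a polarity gene, at -1.13 ± 0.10 (adjusted p = 2.305e-09) and ST14, a membrane protease, at -1.19 ± 0.09. In control 17 of the 24 genes were higher in JNKKO than in WT and 1 lower. SNAI2, ZEB2 and TWIST1 were lower in JNKKO than in WT in that comparison. In WT, the dimerizer with TGF-β1 against control had 9 of the 24 genes lower and 5 higher, with SNAI2 higher and ZEB2 and TWIST1 lower. A link between these factors and the genes of the list was not tested.

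Among 23 tested mesenchymal genes TGF-β1 raised 21 and lowered 0 in JNKKO (median 2.35) and raised 19 and lowered 2 in WT (median 2.23). MMP2, a matrix protease, rose by 6.11 ± 0.13 in JNKKO and 5.86 ± 0.13 in WT, and CDH2, the N-cadherin gene, reached 47.0 ± 2.04 CPM in JNKKO dimerizer with TGF-β1, against 5.67 ± 0.32 CPM in JNKKO dimerizer, and 22.5 ± 2.26 CPM in WT dimerizer with TGF-β1, against 3.49 ± 0.26 CPM in WT dimerizer. With TGF-β1, 16 of the list were higher in JNKKO than in WT and 5 lower, with the matrix genes SPARC at 2.44 ± 0.08 and FBN1 at 1.90 ± 0.08. The dimerizer alone raised 9 of the list and lowered 5 in JNKKO (median 0.21). In WT it raised 7 and lowered 7 (median 0.26). Of 21 other tested EMT regulators TGF-β1 raised 17 and lowered 2 in JNKKO and raised 18 and lowered 1 in WT. ID3, which blocks helix-loop-helix factors, rose by 1.49 ± 0.05 in JNKKO and 2.02 ± 0.05 in WT, TBX3 by 1.70 ± 0.08 in JNKKO and 0.60 ± 0.08 in WT, and RUNX1 by 0.56 ± 0.05 in JNKKO and 1.003 ± 0.05 in WT. The dimerizer alone raised 8 of these 21 regulators and lowered 4 in JNKKO, and raised 8 and lowered 8 in WT. It lowered both ID3 (-0.57 ± 0.05 in JNKKO and -1.85 ± 0.05 in WT) and ID2 (-1.73 ± 0.13 in JNKKO and -3.26 ± 0.12 in WT). ID1 was lower with the dimerizer in WT and higher in JNKKO.

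Of the 20 corepressors of SNAI and ZEB proteins TGF-β1 raised 6 and lowered 5 in JNKKO and raised 8 and lowered 7 in WT. Of all genes 60.7% passed in JNKKO and 65.2% in WT. These counts, and those of the short lists below, therefore do not set the lists apart from the table. KDM1A, the histone demethylase that SNAI1 recruits, rose by 0.73 ± 0.04 in JNKKO and 0.86 ± 0.04 in WT (adjusted p = 6.748e-15 and 1.115e-16), and AJUBA, a LIM corepressor, was lower in JNKKO (-0.54 ± 0.06) and higher in WT (0.17 ± 0.06, adjusted p = 0.0117), a difference of -0.71 ± 0.08 (adjusted p = 6.114e-07). Among 15 tested regulators of the stability of the factors 5 rose and 5 fell in JNKKO and 6 rose and 4 fell in WT, or 4 and 4 without WT dimerizer with TGF-β1 replicate 3, with SIAH1, a ubiquitin ligase, higher by 0.54 ± 0.05 in JNKKO and 0.53 ± 0.05 in WT. Of 7 tested intermediate filament genes and linkers, 4 rose and 2 fell in JNKKO and 3 rose and 2 fell in WT. PLEC, the linker plectin, rose with the dimerizer in JNKKO (0.31 ± 0.04), as VIM did, and in WT it fell (-0.65 ± 0.04), where VIM rose. With TGF-β1 PLEC was higher in both genotypes, while VIM did not pass in JNKKO. In control PLEC was lower in JNKKO than in WT, where VIM was higher. KRT8, a simple epithelial keratin, rose with TGF-β1 by 1.19 ± 0.08 in JNKKO and 1.57 ± 0.08 in WT. KRT14, a basal keratin, rose by 1.12 ± 0.08 in JNKKO (adjusted p = 1.194e-08) and fell in WT (-0.94 ± 0.08), a difference of 2.06 ± 0.11 (adjusted p = 5.388e-09). KRT5, the other basal keratin on the list, was lower with TGF-β1 in both genotypes. KRT18 was lower in JNKKO and higher in WT.

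To place the members among all genes, the 6 group means of log2 CPM, centred on their own mean, were compared with those of 13656 genes at 1 CPM or more, the distance being the root mean square difference over the 6 groups. SNAI2 was nearest to FSTL3, a binder of activin, at 0.081, then to C15orf52 (0.089) and PLXNA2, a plexin (0.137). FSTL3 was at 449, 228 and 150 CPM in JNKKO dimerizer with TGF-β1, dimerizer and control, and at 432, 142 and 306 CPM in WT. TWIST2 was nearest to RASA1, a RAS GTPase activator (0.049), MAP2K1, the kinase MEK1 (0.069), and FHOD1, a formin (0.075). ZEB1 lay nearest to RP11-261C10.5 (0.106) and RASAL2 (0.119), another RAS GTPase activator, which was at 91.5 CPM in JNKKO dimerizer with TGF-β1 and 34.4 to 52.6 CPM elsewhere.

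VIM lay nearest to PLEKHG5 (0.086), GNA15 (0.097) and TNFRSF25 (0.127), ZEB2 to DGKD (0.101), HCFC1R1 (0.112) and SKOR1 (0.118), and TWIST1 to TMEM143 (0.099), SKOR1 (0.107) and ZC3H6 (0.110). SNAI1, with few counts, had ADAMTS15, a matrix protease, at 0.166. Between members the closest pair was ZEB2 and TWIST1, at 0.170, with 7 genes nearer to ZEB2 than TWIST1 was. SNAI1 and SNAI2 were 0.841 apart, with 382 genes nearer to SNAI1. These distances describe 6 group means in the same 18 libraries and were given no test.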

How the data were processed

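RNA of 18 libraries from acini was sequenced in read pairs after selection on oligo(dT), per the labels' protocols. The authors deposited expected counts and TPM per gene. Per the submitters' processing notes, cutadapt and RSEM were used with build hg38. No source used here gives their versions, the aligner, the annotation or any strand setting. RSEM shares out reads that map to several transcripts, so paralogs may exchange counts.

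Expected counts were rounded to whole numbers. Libraries were grouped by title. Genes were filtered with filterByExpr (16911 of 42141 kept), scaled by TMM and fitted with edgeR 4.0.16 (robust quasi-likelihood F test, R 4.3.3) with a mean for each of the 6 groups. P-values were adjusted by Benjamini-Hochberg over all genes tested, with a threshold of 0.05. The ± after a log2 difference is its standard error. CPM values are counts scaled by TMM library size. Ratios of summed low counts carry exact 95% intervals for counting error, and the floor is 3 counts over the group. Library totals were 24243537 to 34499651. Alternatives were limma 3.58.1 on log2(TPM + 1) and log2(TPM + 0.1), DESeq2 1.42.0, upper-quartile factors, no filter, no mitochondrial genes, only the compared groups, a replicate block and each library left out.

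The members and lists were chosen with earlier results of these data known. Of each list, up to 3 called genes with the smallest adjusted p at 1 CPM or more were named per comparison. Symbols of the members were placed on GENCODE 29 through their transcripts. RefSeq sequences of the miRNAs and of the host promoters were matched by name, with an entry for each of those printed.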

Additional observations from a re-analysis of the deposited data

Results flagged for a closer look

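The response of JNKKO acini differed from that of WT acini past the threshold for several members, tested by the interaction term of the edgeR fit. For the dimerizer against control, the JNKKO response minus the WT response was 1.495 for SNAI2, 0.96 for ZEB2, 0.86 for TWIST1, 0.41 for TWIST2 and 0.19 for VIM on the log2 scale. For TGF-β1 added to the dimerizer it was 1.25 for ZEB1, -0.36 for SNAI2 and -0.24 for VIM. SNAI2 under the dimerizer is the one of these in which the genotypes moved in opposite directions, both past the threshold in all alternatives. These 8 values stand among 42.6% of all genes past the threshold for the dimerizer and 32.9% for TGF-β1.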

How the results depend on the processing

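Of the members' values under all alternatives, 1105 kept their direction and side of the threshold, 54 lost the threshold, 13 gained it and 40 changed sign. These counts include SNAI1, whose calls against groups without TGF-β1 are no support. The number of members whose dimerizer response differed between genotypes was 5, and 3 in each of the fits to TPM (limma, pseudocounts 1 and 0.1, and no filter). Leaving out 1 library gave 3 to 5, with 3 without WT control replicate 3. On TPM, JNKKO dimerizer with TGF-β1 minus JNKKO dimerizer changed sign for TWIST1 (0.20, 0.21 and 0.20) and VIM (0.24, 0.24 and 0.24), where the median of all genes was at 0.204 with a pseudocount of 1, and JNKKO minus WT with TGF-β1 for ZEB2 (-0.056, -0.065 and -0.056). The genotype difference of the TWIST2 response to TGF-β1, near 0 throughout, was 0.038 with upper-quartile factors, 0.014 without mitochondrial genes, 0.079, 0.074 and 0.079 on TPM, and 0.0083 in DESeq2. The cause was not tested.

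Leaving out 1 library, the values that changed sign ran as follows. For WT dimerizer minus control they were -0.044 to 0.19 for TWIST2 and -1.21 to 0.023 for SNAI1. For JNKKO with TGF-β1 minus dimerizer they were -0.15 to 0.042 for TWIST1 and -0.077 to 0.028 for VIM. For JNKKO minus WT, SNAI1 ran over -0.21 to 0.74 in control, -0.28 to 0.86 under dimerizer and -0.55 to 0.16 with TGF-β1, and ZEB2 over -0.088 to 0.042 under dimerizer. The genotype difference of the dimerizer response of SNAI1 was -0.53 to 0.71, that of its TGF-β1 response -1.14 to 0.0002, and that of the TGF-β1 response of TWIST2 -0.084 to 0.043. None of these passed the threshold with all libraries.

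Replicate numbers did not pair the libraries: of 45 correlations between libraries of the same number, 6 were above 0.1, over a range of -0.107 to 0.144, and no pair of groups had all 3 above it. With the replicate block, the VIM difference in dimerizer response was 0.19 (adjusted p = 0.0525), and no other call changed. SNAI1 and PRRX1 are limited by depth, with at most 50 and 8 counts in a library.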
